A study of Mus musculus with 6 samples.

Results

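The T cell receptor gene segments are the 258 genes, of 49315 in the count table, whose names mark a variable, diversity, joining or constant segment of the receptor loci. They were chosen by name alone: Trav, Trbv, Trdv and Trgv for variable segments, Trbd and Trdd for diversity segments, Traj, Trbj, Trdj and Trgj for joining segments, and Trac, Trbc1, Trbc2 and Trdc for constant genes. The alpha locus held 128 variable segments, 60 joining segments and 1 constant gene, and the beta locus 35 variable, 2 diversity and 14 joining segments and 2 constant genes. The delta locus held 6 variable, 2 diversity and 2 joining segments and 1 constant gene. Segments whose names carry both Trav and a dv number, such as Trav13-4-dv7, were counted as alpha only. Of the gamma locus only Trgv2 and 4 joining segments carried such names. The constant genes Trgc1, Trgc2 and Trgc4 were not found under those names, and 10 gamma genes that the table names Tcrg-C or Tcrg-V are given separately.

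RNA was sequenced from lung cells of male C57BL/6J mice (C57BL/6 in the sample labels) given saline (sham) or bleomycin (BLM), a drug that injures the lung and leads to fibrosis. Lungs were harvested 21 days after instillation, and 2 to 3 lungs of the same group were pooled per tube. Cells were left unsorted or were separated by an antibody to Lamp1, a lysosomal membrane protein, on the cell surface, which gave Lamp1-depleted and Lamp1-enriched cells. Each of the 6 conditions was 1 library, so animals could not be separated and the spread between mice was not measured. The age of these mice was not given in the sources used here, and all groups shared the same genotype.

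An alpha-beta or gamma-delta T cell makes its receptor by joining 1 variable segment, in the beta and delta chains 1 diversity segment, and 1 joining segment. The joined exon is then spliced to the constant gene. Most T cells carry an alpha-beta receptor, and a smaller population, common at surfaces such as the lung, carries gamma-delta receptors. The receptor reaches the cell surface together with the CD3 proteins, which pass its signal to kinases such as Lck and Zap70. Because each clone keeps its own joined segments, the reads of a pooled lung sample add up many clones.

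The joining and diversity segments are short, and their sequences, from the GENCODE M21 transcripts (GRCm38), show what each count rests on. They are printed for the segments on which the BLM comparison turns, for the joining segments of innate-like T cells, for a joining pseudogene with reads and for both beta diversity segments. Capitals mark the joining motif, which is TTN or TGG followed by GGN, any 3 bases and GGN. It was searched on the coding strand and covers the codons of the phenylalanine or tryptophan and of the glycines at the core of a joining segment. This motif was found in 58 of 70 joining genes and in 2 of 10 joining pseudogenes.
Traj17, chr14:54201775-54201837, plus strand: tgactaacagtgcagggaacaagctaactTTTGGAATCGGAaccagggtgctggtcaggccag
Traj21, chr14:54198790-54198846, plus strand: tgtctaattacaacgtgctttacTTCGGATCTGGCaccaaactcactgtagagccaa
Traj18, chr14:54200777-54200842, plus strand: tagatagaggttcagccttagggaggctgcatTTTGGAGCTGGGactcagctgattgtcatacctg
Traj33, chr14:54185358-54185414, plus strand: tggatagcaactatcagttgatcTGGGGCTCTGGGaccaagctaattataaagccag
Trbj1-5, chr6:41535084-41535133, plus strand: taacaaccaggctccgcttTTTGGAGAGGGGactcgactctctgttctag
Trbj2-6, a pseudogene, chr6:41543598-41543645, plus strand: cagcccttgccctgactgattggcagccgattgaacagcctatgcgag
Trdj1, chr14:54123138-54123188, plus strand: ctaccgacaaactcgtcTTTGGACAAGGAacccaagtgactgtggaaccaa
Trbd1, chr6:41533201-41533212, plus strand: gggacagggggc
Trbd2, chr6:41542163-41542176, plus strand: gggactgggggggc

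The beta constant genes Trbc1 and Trbc2 are close copies. Their coding parts, each of 518 bases, were 95.6% identical, and the first 259 bases were the same in both. Coding bases 400 to 489 are shown because 14 of the 23 differing positions lie there, the most in any stretch of that length, and capitals mark the bases that differ.
Trbc1: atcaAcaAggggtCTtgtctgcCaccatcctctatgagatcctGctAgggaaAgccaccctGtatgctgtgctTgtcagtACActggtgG
Trbc2: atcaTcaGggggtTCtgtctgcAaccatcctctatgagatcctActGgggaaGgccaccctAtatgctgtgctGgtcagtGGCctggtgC

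The libraries held 30236120 to 52918696 counted reads. A single gene, Gm26917, took 38.4% of the counts of BLM Lamp1-depleted cells, against 0.884% to 7.10% in the other 5 libraries, and the scaling factor of these cells was 0.699 against 0.993 to 1.19. Levels below are CPM, counts scaled to library size with trimmed-mean (TMM) factors, and a ratio carries a 95% Clopper-Pearson interval that covers counting error only. A gene was compared where the higher library had at least 10 reads, and was called higher or lower at 2-fold. Lamp1 RNA was at 491 CPM in sham Lamp1-enriched and 146 in sham Lamp1-depleted cells, and at 378 and 111 in the BLM libraries. All 7 endothelial marker genes were higher in Lamp1-enriched than in Lamp1-depleted cells in both treatments.

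T cell receptor reads were concentrated in the Lamp1-depleted cells of both treatments. Sham libraries held 1493 member reads in unsorted, 15439 in Lamp1-depleted and 878 in Lamp1-enriched cells. The BLM libraries held 1056, 5153 and 566 reads in the same order. Scaled to library size these were 30.8, 339 and 19.1 CPM in sham and 26.8, 244 and 10.4 in BLM, so that the 2 Lamp1-depleted libraries stood above the other 4. Of the 147 members with at least 10 reads in a library, 102 were highest in sham Lamp1-depleted cells, 45 in BLM Lamp1-depleted cells and 0 in another library. The filter was met mostly there, by 142 members in sham and 87 in BLM Lamp1-depleted cells, against 9 to 33 in the other 4 libraries. This count therefore adds little to the sums, and the same count over all genes is not given here. In whole-sample RNA, fewer T cells and less receptor RNA per T cell cannot be told apart.

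**Figure D1:**
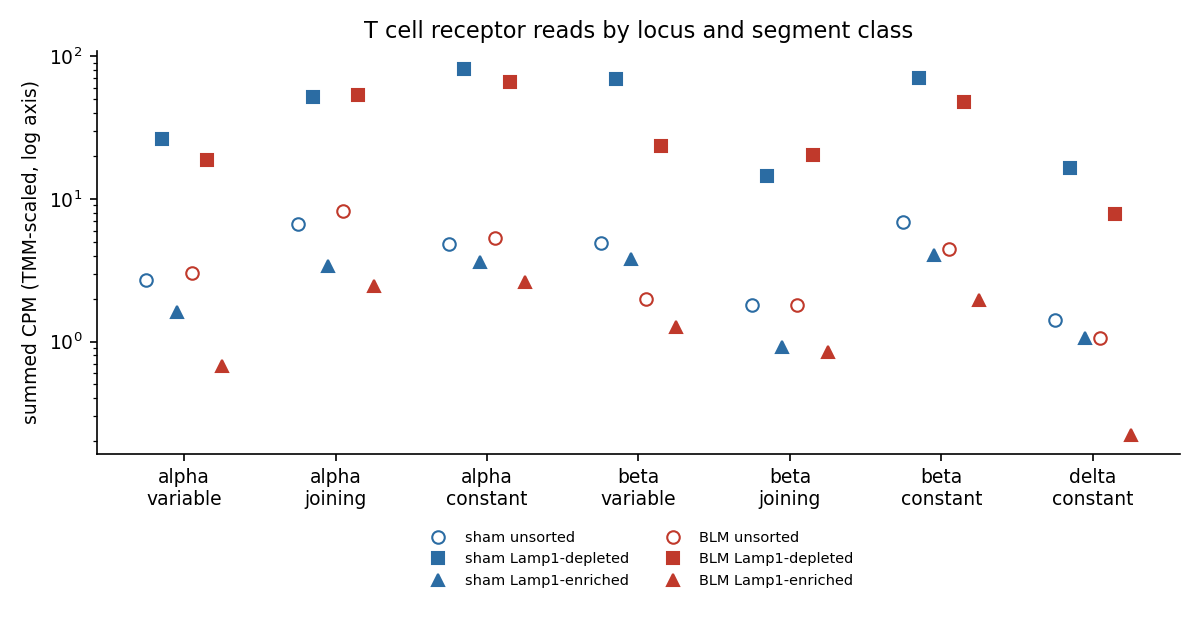
Summed reads of each locus and segment class (x axis) in TMM-scaled CPM (y axis, log scale), 1 point per library; blue is sham, red is BLM, open circles are unsorted, squares Lamp1-depleted and triangles Lamp1-enriched cells. In every class shown both Lamp1-depleted libraries lie above the other 4; levels are to be compared between libraries within a class, since lengths differ between classes.

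The Lamp1-enriched cells held 17.7-fold fewer member reads than the Lamp1-depleted cells in sham mice, a log2 ratio of -4.15 (95% interval -4.25 to -4.05). In BLM mice the difference was 23.5-fold, a log2 ratio of -4.55 (-4.68 to -4.43). In sham cells 142 members were compared, of which 140 were lower and 0 higher in Lamp1-enriched cells, while 25.2% of all genes compared were lower and 27.5% higher. In BLM cells 87 of 88 members were lower and 0 higher, against 22.6% and 34.3% of all genes. The exceptions were Trav7-3 and Traj36 in sham and Traj6 in BLM cells, each with 14 or fewer reads, and they were named after their values were seen. The median log2 ratio was -4.38 over the members in sham cells, against -0.01 over all genes compared, and -4.67 in BLM cells. The members' range ran from -7.52 to -0.29 in sham and from -7.65 to -0.68 in BLM cells. In sham, 142 members had 10 reads in Lamp1-depleted and 15 in Lamp1-enriched cells, and in BLM 87 and 9. Most members thus passed the filter only through the library where they were high, which favours a lower call. Of the lower members, 94 in sham and 59 in BLM had 3 or fewer Lamp1-enriched reads, so their ratios are imprecise.

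The 4 sorted libraries, 2 per fraction, allowed a single test with treatment as a block. By edgeR's quasi-likelihood test with Benjamini-Hochberg adjustment over 20593 genes, 86 of the 87 members tested were lower in Lamp1-enriched cells and 0 were higher, in a table where 19.2% of genes were lower and 21.5% higher. The median log2 fold change of these members was -4.55 and their range -7.84 to -2.61. Genes entered this test through edgeR's expression filter. Only 15 members in sham and 9 in BLM had 10 reads in Lamp1-enriched cells. Most members thus passed through the Lamp1-depleted libraries where they were high, which favours a lower call. At an unadjusted edgeR p under 0.05 all 87 were lower, while 9811 of the 20593 genes passed that threshold in either direction. DESeq2's Wald test, which tested 114 members, called 84 lower and 0 higher. Of all 21664 genes it tested, 3424 were lower and 3982 higher. The member that missed the threshold was Trgj1, with a log2 fold change of -2.61 (edgeR adjusted p = 0.087). Testing every gene with at least 1 read gave 86 of 189 members lower and 0 higher, beside 3345 lower of 34298 genes. The fit had 1 residual degree of freedom and infinite prior degrees of freedom, so a gene's own spread carried no weight. Its p-values rest on a dispersion pooled across genes in these 4 libraries and not on the spread between mice. They depend strongly on the settings. The lowest edgeR adjusted p of the constant genes was 0.0044 without the treatment block and 5.7e-06 by total counts.

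**Figure D2:**
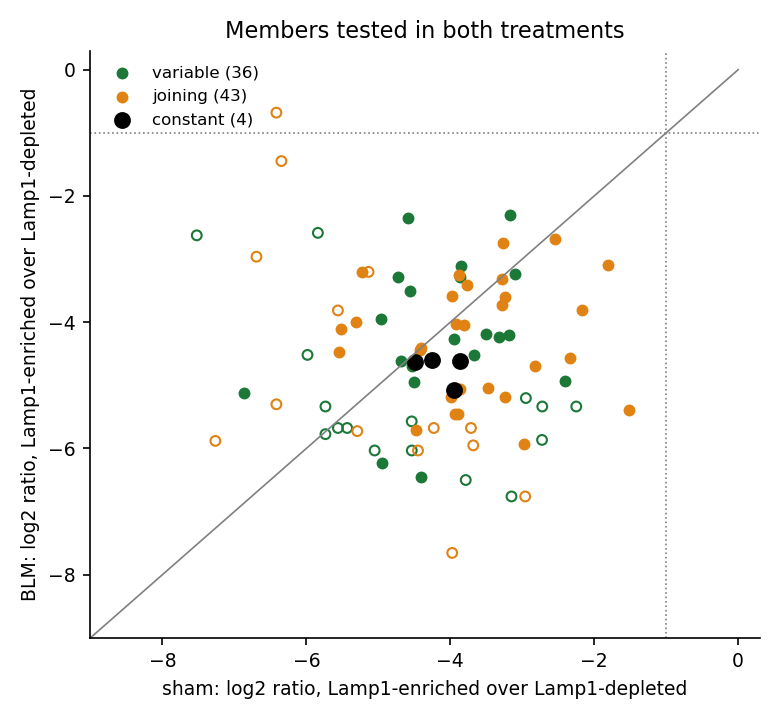
Log2 ratio of Lamp1-enriched over Lamp1-depleted cells in sham (x axis) and BLM (y axis) for the 83 members compared in both treatments, coloured by segment class; open symbols have 0 reads in a Lamp1-enriched library, so their position depends on the added count of 0.5 reads, and the diagonal marks equal ratios. Of these members, 82 lie beyond 2-fold lower (dotted lines) in both treatments.

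The constant genes carried the deepest counts. Trac (ENSMUSG00000076928, chr14:54220521-54224206), which encodes the constant part of the alpha chain, had 234 reads in unsorted, 3715 in Lamp1-depleted and 167 in Lamp1-enriched sham cells. The BLM counts were 209, 1386 and 143 in that order, in which the 3 fractions are given from here on. Its Lamp1-depleted counts stood above the other 4 libraries, and its log2 fold change between the sorted fractions was -4.66 (edgeR quasi-likelihood adjusted p = 2.46e-28). Trbc1 (chr6:41538218-41539881) and Trbc2 (chr6:41546730-41548352) encode alternative constant parts of the beta chain. Trbc1 had 143, 1121 and 77 reads in sham and 80, 378 and 39 in BLM, with a log2 fold change of -4.33 (edgeR adjusted p = 1.15e-19). Trbc2 had 194, 2070 and 109 reads in sham and 96, 636 and 67 in BLM, with a log2 fold change of -4.52 (edgeR adjusted p = 2.57e-25). Trdc (chr14:54142851-54148868), the delta constant gene, had 69, 753 and 49 reads in sham and 42, 165 and 12 in BLM, with a log2 fold change of -4.55 (edgeR adjusted p = 1.47e-16). The exons of Trdc overlap Gm43434 and Trdv5 on the opposite strand, and whether counting used strand was not given in the sources used here.

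Per kilobase of exon, Trac was the highest of the constant genes in both Lamp1-depleted libraries. Its level there was 87.2 CPM per kilobase in sham and 70.2 in BLM cells, against 65.6 and 43.5 for Trbc2, 32.8 and 23.9 for Trbc1 and 4.27 and 2.02 for Trdc. The order was the same in both treatments. The low Trdc value rests in part on its length, 3865 bases of transcript against 935 for Trac. Not divided by length, Trdc was at 16.5 CPM in sham and 7.81 in BLM, against 81.5 and 65.6 for Trac. Trbc1 took 35.1% of the beta constant reads in sham Lamp1-depleted cells (33.5 to 36.8) and 37.3% in BLM Lamp1-depleted cells (34.3 to 40.3), and the intervals overlapped. The identical first part of both genes means that reads from it could be assigned to neither gene with certainty.

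The genes that work with the receptor were distributed like it. All 12 genes of the receptor complex and its proximal signalling, the 3 coreceptor genes Cd4, Cd8a and Cd8b1 and the 7 other T cell surface and transcription factor genes were lower in Lamp1-enriched than in Lamp1-depleted cells by the edgeR test. The summed CD3 genes Cd3d, Cd3e and Cd3g were lower there too, at -4.41 (-4.57 to -4.27) in sham and -4.34 (-4.55 to -4.14) in BLM cells. Markers of natural killer cells and B cells moved in the same direction, with 8 of 8 and 7 of 7 lower. The 5 markers of group 2 innate lymphoid cells did not, with 2 lower, 1 higher and a median log2 fold change of 0.30. Their part in the receptor values was not tested.

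Unsorted cells lay between the fractions and nearer to the Lamp1-enriched cells. The summed members were 11.01-fold higher in Lamp1-depleted than in unsorted cells in sham mice and 9.11-fold higher in BLM mice. Unsorted cells in turn were 1.61-fold above Lamp1-enriched cells in sham and 2.58-fold above them in BLM mice. In the paper's flow cytometry, cells with surface Lamp1 were a minority of lung cells. A mixture of the fractions in such proportions would lie near the Lamp1-depleted cells, so the fractions do not add up to the unsorted library. The reason was not tested. For delta constant reads, unsorted cells were 1.33-fold above Lamp1-enriched cells in sham and 4.84-fold in BLM mice, the latter resting on 12 reads in the Lamp1-enriched library.

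BLM treatment was then compared with sham within each fraction. In Lamp1-depleted cells the summed members were lower in BLM by a log2 ratio of -0.47 (-0.52 to -0.43), in Lamp1-enriched cells by -0.88 (-1.03 to -0.72), and in unsorted cells by -0.20 (-0.32 to -0.09). With 1 library per condition there was no test, and these comparisons give both values with counting error only. The median of all genes compared was itself -0.20 in Lamp1-depleted cells, -0.07 in unsorted and -0.00 in Lamp1-enriched cells. Scaling by total counts shifted the scale of the Lamp1-depleted comparison by -0.72 and DESeq2 size factors by 0.15, and ratios resting on a few reads moved by less. The class balances below do not depend on the scaling.

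In Lamp1-depleted cells 147 members were compared, and 67 were lower and 16 higher in BLM cells, against 22.3% lower and 13.7% higher of all genes. Scaling by total counts made this 88 lower and 11 higher, and DESeq2 size factors 61 and 20. These scalings shifted all genes too, by -0.72 and 0.15, and the shares of all genes there are not given here. The counts differed by class. Of 22 beta variable segments 19 were lower and 0 higher, and of 45 alpha variable segments 19 were lower and 2 higher. Of 52 alpha joining segments 21 were lower and 10 higher, and of 13 beta joining segments 1 was lower and 2 were higher. In unsorted cells 14 of 36 members were lower and 5 higher, against 16.0% and 13.9% of all genes. Scaling by total counts made this 19 lower and 3 higher. It shifted all genes too, by -0.26, and their shares there are not given here. In Lamp1-enriched cells 9 of 18 were lower and 2 higher, against 7.86% and 10.2%. In Lamp1-depleted cells 142 members had at least 10 reads in sham and 87 in BLM. In unsorted cells 33 and 16 did, and in Lamp1-enriched cells 15 and 9. More members thus passed the filter through sham, which favours a lower call. Of the lower members, 32 in Lamp1-depleted, 12 in unsorted and 3 in Lamp1-enriched cells had 3 or fewer BLM reads. The 5 higher in unsorted cells, Traj4, Traj17, Traj28, Traj31 and Trav13-2, and the 2 higher in Lamp1-enriched cells, Traj6 and Trbj2-6, were listed after their values were seen.

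**Figure D3:**
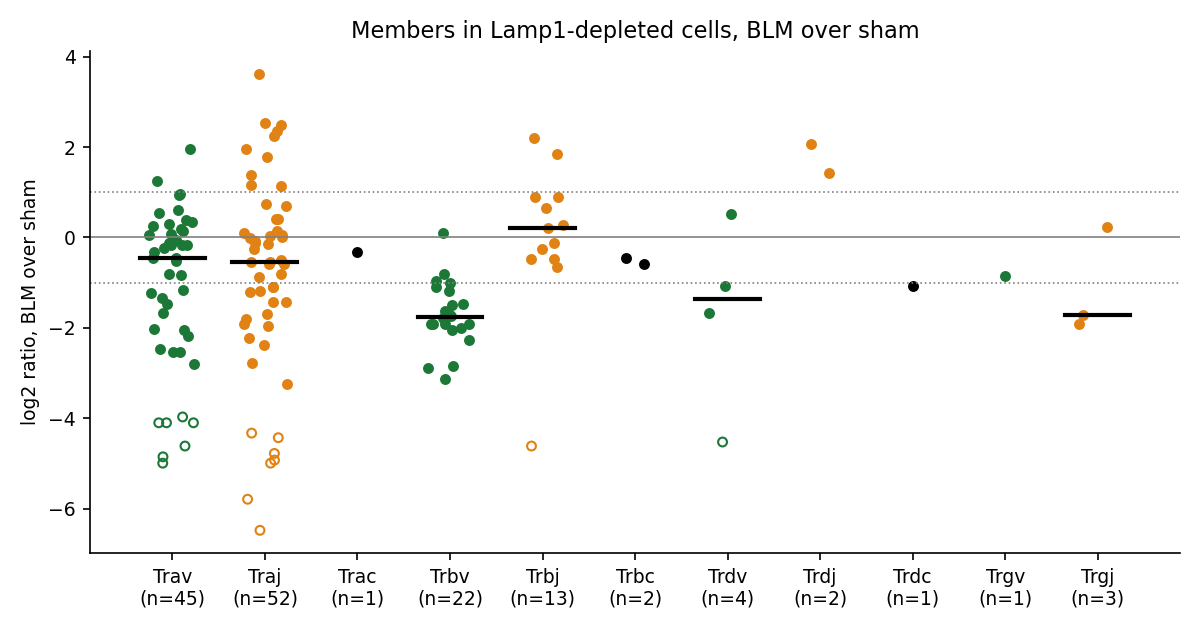
Log2 ratio of BLM over sham in Lamp1-depleted cells (y axis) for each member compared, by locus and class (x axis, with the number of members); green is variable, orange joining and black constant, thick bars are medians of groups over 2 members, dotted lines mark 2-fold, and open symbols have 0 reads in a library. The 22 Trbv segments centre on -1.76 and the 13 Trbj segments on 0.22; the diversity segment Trbd1, at -4.19, is not drawn.

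Summed by class, beta variable reads in Lamp1-depleted cells were 69.1 CPM in sham and 23.6 in BLM, a log2 ratio of -1.55 (-1.69 to -1.41). Beta joining reads were at 14.5 in sham and 20.3 in BLM, a log2 ratio of 0.48 (0.31 to 0.66) that became -0.24 when scaled by total counts. The beta constant genes lay between, at -0.54 (-0.65 to -0.44). Joining segments therefore took 17.4% of the beta joining and variable reads in sham Lamp1-depleted cells (16.2 to 18.6) and 46.2% in BLM Lamp1-depleted cells (43.0 to 49.5).

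The same share differed in the other fractions. It was 27.0% (22.2 to 32.2) in sham and 47.7% (39.4 to 56.0) in BLM unsorted cells, and 19.4% (14.4 to 25.4) in sham and 40.0% (31.0 to 49.6) in BLM Lamp1-enriched cells. The values of the 3 sham libraries all lay below those of the 3 BLM libraries. The share of counts on Gm26917 was also higher in BLM in each fraction, at 1.54% in sham and 7.10% in BLM unsorted, 3.50% and 38.4% in Lamp1-depleted, and 0.884% and 1.53% in Lamp1-enriched cells, and its part in the joining share was not tested. The odds of a variable against a joining read were 0.24 times as high in BLM as in sham Lamp1-depleted cells (0.21 to 0.29), 0.41 times in unsorted (0.27 to 0.62) and 0.36 times in Lamp1-enriched cells (0.21 to 0.62). Fractions of a treatment come from pooled lungs of that treatment, so they are not independent replicates and no test was made.

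The alpha locus showed a smaller shift. Alpha variable reads in Lamp1-depleted cells had a log2 ratio of BLM over sham of -0.49 (-0.66 to -0.32), alpha joining reads 0.05 (-0.06 to 0.15; -0.67 by total counts) and Trac -0.31 (-0.40 to -0.22). Joining segments took 66.6% (65.0 to 68.1) of alpha joining and variable reads in sham and 74.3% (72.0 to 76.4) in BLM Lamp1-depleted cells. In Lamp1-enriched cells the shares were 67.7% and 78.4%, and in unsorted cells 71.2% and 73.1%. The intervals of sham and BLM overlapped in each of these fractions. The variable-to-joining odds ratio was 0.69 (0.60 to 0.79) in Lamp1-depleted, 0.58 (0.35 to 0.93) in Lamp1-enriched and 0.91 (0.67 to 1.23) in unsorted cells.

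**Figure D4:**
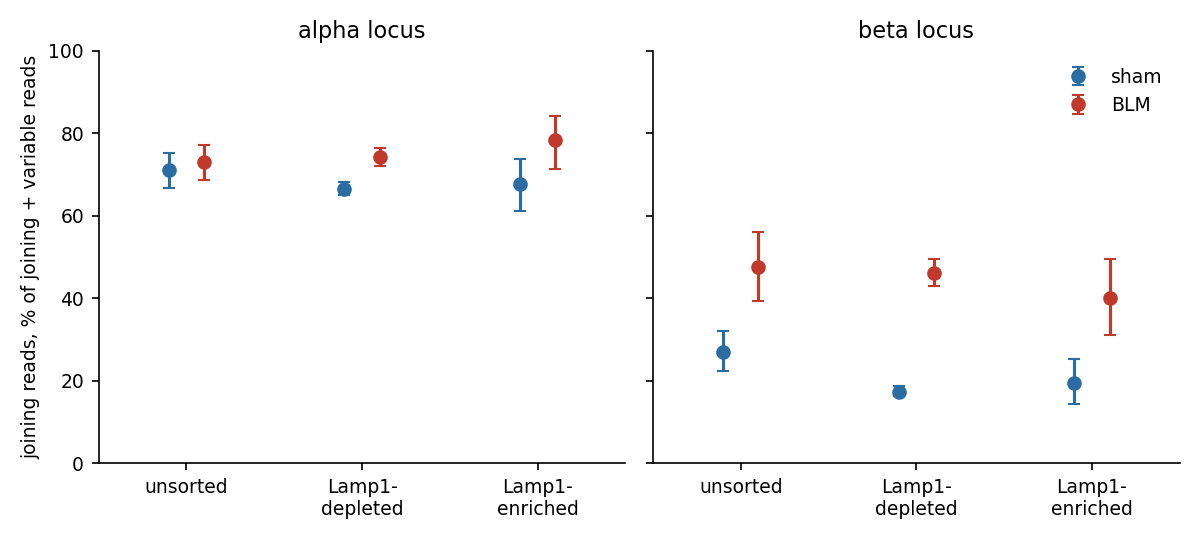
Joining reads as a percentage of joining plus variable reads (y axis, 0 to 100) in each fraction (x axis), for the alpha locus (left) and the beta locus (right); points are single libraries, blue sham and red BLM, and bars are 95% Clopper-Pearson intervals. At the beta locus all 3 BLM points, 40.0% to 47.7%, lie above all 3 sham points, 17.4% to 27.0%.

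Set against the CD3 genes, variable and joining segments of Lamp1-depleted cells stood apart. The CD3 sum was lower in BLM by a log2 ratio of -1.12 (-1.19 to -1.04) and the sum of all variable segments by -1.16 (-1.26 to -1.06). The odds of a variable against a CD3 read were 0.97 times as high in BLM as in sham (0.89 to 1.06), and those of a joining read 2.43 times as high (2.25 to 2.63). For Trac the same value was 1.75 (1.61 to 1.89), for the beta constant genes 1.49 (1.36 to 1.62) and for Trdc 1.03 (0.85 to 1.22). The other fractions differed. Variable reads were at 0.71 (0.53 to 0.94) in Lamp1-enriched and 0.80 (0.64 to 0.995) in unsorted cells. In the same order, joining reads were at 1.60 (1.23 to 2.08) and 1.43 (1.18 to 1.73), and the beta constant genes at 0.99 (0.73 to 1.34) and 0.80 (0.64 to 1.01).

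Among the beta variable segments, Trbv16, Trbv3, Trbv20, Trbv12-2, Trbv13-2 and Trbv12-1 had the highest mean levels per kilobase. Trbv16 had 22, 360 and 23 reads in sham and 21, 50 and 6 in BLM. Trbv3 had 15, 350 and 11 reads in sham and 7, 50 and 1 in BLM. In Lamp1-depleted cells the log2 ratio of BLM over sham was -1.73 (-2.20 to -1.31) for Trbv16 and -1.69 (-2.16 to -1.27) for Trbv3, so both were lower in BLM. Trbv13-2 had 13, 250 and 29 reads in sham and 1, 28 and 7 in BLM, with a log2 ratio of -2.04 (-2.67 to -1.48). Trbv12-2 had 32, 238 and 16 reads in sham and 13, 29 and 7 in BLM, with a log2 ratio of -1.92 (-2.54 to -1.37). Trbv20 had 20, 221 and 10 reads in sham and 9, 58 and 1 in BLM, and its ratio of -0.82 (-1.26 to -0.40) stayed within 2-fold. Trbv12-1 had 16, 191 and 8 reads in sham and 0, 44 and 3 in BLM, with a log2 ratio of -1.003 (-1.52 to -0.53), at the 2-fold limit.

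Among the beta variable segments with at least 50 reads, Trbv15 and Trbv5 had the lowest ratios in this comparison. Trbv15 had 7, 179 and 7 reads in sham and 1, 11 and 5 in BLM, with a log2 ratio of -2.88 (-3.94 to -2.04) in Lamp1-depleted cells. Trbv5 had 17, 97 and 3 reads in sham and 3, 6 and 2 in BLM, with a log2 ratio of -2.84 (-4.39 to -1.73). An exon of Trbv5, and of Trbv4, overlaps the gene 5830405F06Rik, so their reads are uncertain. Trbv29, at 0.11 in Lamp1-depleted cells with 54 sham and 27 BLM reads, was the only 1 of the 22 with a ratio above 0.

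Within the beta variable reads, segment usage was compared between the Lamp1-depleted libraries, the 2 with the most such reads. Their shares differed by 16.1% of reads in all. The effective number of segments (inverse Simpson index) was 15.2 in sham and 14.5 in BLM Lamp1-depleted cells, and 23 of 35 segments were seen in each. Trbv16 took 11.4% (10.3 to 12.6) of the sham and 10.02% (7.53 to 12.996) of the BLM reads, and Trbv3 11.1% (10.04 to 12.3) and again 10.02%. Trbv15 took 5.68% (4.90 to 6.55) and 2.20% (1.11 to 3.91), and Trbv20 7.02% (6.15 to 7.97) and 11.6% (8.95 to 14.8), intervals that did not overlap. The BLM unsorted library stood apart with an effective number of 7.28 from 78 reads, of which Trbv16 held 26.9%.

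Alpha variable reads were thin and spread over many segments. Trav5-4, the highest per kilobase, had 14, 61 and 4 reads in sham and 2, 25 and 0 in BLM. In Lamp1-depleted cells its log2 ratio of BLM over sham was -0.18 (-0.91 to 0.52). The next 5 by mean CPM were Trav13-4-dv7, Trav13-1, Trav7-4, Trav10 and Trav16n, with 28 to 39 reads in sham and 16 to 20 in BLM Lamp1-depleted cells. Their log2 ratios there ran from 0.07 to 0.61 and every counting interval included 0. The effective number of alpha variable segments was 42.3 in sham and 30.5 in BLM Lamp1-depleted cells, and their shares differed by 35.2% of reads. At the 37 reads of the shallowest library, 25.8 segments were expected in sham and 23.1 in BLM Lamp1-depleted cells.

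The mouse alpha locus holds duplicated blocks of variable segments, and the members at 0 reads lay mostly there. Of the 60 members at 0 in every library, 48 were alpha variable segments. Of 51 alpha variable segments at least 98% identical to another member, 40 were at 0 reads, and their median over the 6 libraries was 0 reads. Of the 77 without such a copy, 8 were at 0 and the median was 15. Of 34 with an exactly identical partner, 32 were at 0. How reads that match several places were counted was not given in the sources used here, so a count of 0 in these segments does not show that they were not used. No beta variable segment had such a copy, the highest identity being 90.6%.

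The alpha joining segments had more reads than the alpha variable ones in every library, although they are shorter. Traj17 had 29, 99 and 4 reads in sham and 50, 218 and 10 in BLM. Its log2 ratio of BLM over sham was 2.24 (1.90 to 2.61) in Lamp1-depleted and 1.07 (0.40 to 1.80) in unsorted cells. Traj17 took 4.16% (3.39 to 5.04) of alpha joining reads in sham and 19.1% (16.9 to 21.5) in BLM Lamp1-depleted cells, and 3.66% and 16.9% when reads were divided by segment length. Its share was higher in the BLM library of each fraction, although the intervals overlapped in unsorted and in Lamp1-enriched cells.

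Traj21 showed the opposite order. It had 19, 211 and 14 reads in sham and 15, 43 and 11 in BLM, with a log2 ratio of -1.18 (-1.69 to -0.71) in Lamp1-depleted cells. Its share was 8.87% (7.75 to 10.1) in sham, the highest of the 60 segments in that library, and 3.78% (2.75 to 5.05) in BLM. Traj23 and Traj4 were higher in BLM Lamp1-depleted cells, with log2 ratios of 1.15 (0.60 to 1.73) and 1.38 (0.83 to 1.97), which scaling by total counts brought within 2-fold, to 0.44 and 0.67. Traj15 was lower, with 59 sham and 5 BLM reads and a log2 ratio of -2.38 (-4.13 to -1.15). Traj14, a pseudogene, had 60 sham and 0 BLM reads, at least 9.27-fold lower when BLM was set to the floor of 3 reads.

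**Figure D5:**
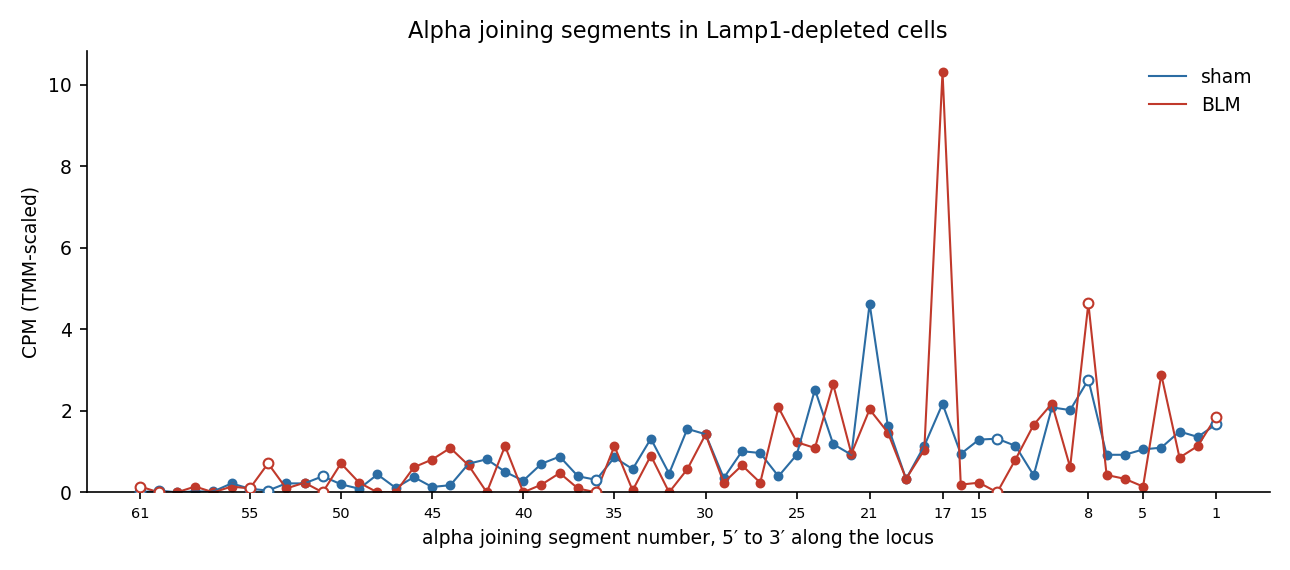
TMM-scaled CPM (y axis) of the 60 alpha joining segments in Lamp1-depleted cells, in their order along the locus from Traj61 to Traj1 (x axis), blue for sham and red for BLM; open symbols are pseudogenes and each point is 1 library. Traj17 reached 10.3 in BLM against 2.17 in sham, Traj21 was at 4.63 in sham against 2.04 in BLM, and both curves are low at the 5′ end.

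Along the locus, reads of the Lamp1-depleted cells were concentrated toward the constant gene. Traj61 to Traj41 took 9.20% of alpha joining reads in sham and 12.6% in BLM Lamp1-depleted cells, Traj40 to Traj21 41.5% and 29.7%, and Traj20 to Traj1 49.3% and 57.7%. Traj17 alone, within Traj20 to Traj1, took 4.16% in sham and 19.1% in BLM, a larger difference than that of the whole stretch. The values therefore do not show a broad shift along the locus. The effective number of alpha joining segments was 31.8 in sham and 15.8 in BLM Lamp1-depleted cells, and their shares differed by 38.3% of reads. A single large share such as that of Traj17 lowers the effective number, and values without Traj17 are not given here. The sham Lamp1-enriched library had the highest share in Traj40 to Traj21, 55.5% of 155 reads (47.3 to 63.5).

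Of the beta joining segments, Trbj1-5 had 19, 81 and 10 reads in sham and 9, 135 and 5 in BLM. Its log2 ratio was 1.84 (1.44 to 2.26) in Lamp1-depleted cells and -0.75 (-2.11 to 0.44) in unsorted cells, where the interval included 0. It took 12.2% (9.84 to 15.0) of beta joining reads in sham and 31.5% (27.1 to 36.1) in BLM Lamp1-depleted cells. Trbj1-1 had 20, 90 and 6 reads in sham and 3, 30 and 4 in BLM, Trbj1-6 had 9, 98 and 2 against 5, 29 and 4, and Trbj2-7 had 10, 74 and 5 against 8, 40 and 9. These 3 stayed within 2-fold in Lamp1-depleted cells, at -0.47, -0.64 and 0.22. Without Trbj1-5, the beta joining segments of Lamp1-depleted cells held 581 reads in sham and 294 in BLM, against 3149 and 499 beta variable reads.

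Joining pseudogenes carried reads too. Traj8, without the joining motif, had 18, 126 and 11 reads in sham and 20, 98 and 7 in BLM, and Traj1 had 7, 76 and 0 against 4, 39 and 1. Trbj2-6, shown above, had 6, 23 and 2 reads in sham and 5, 50 and 10 in BLM, with a log2 ratio of 2.20 (1.49 to 3.01) in Lamp1-depleted cells. It made up 3.47% (2.21 to 5.17) of beta joining reads in sham and 11.7% (8.78 to 15.1) in BLM Lamp1-depleted cells. All 10 joining pseudogenes are part of the class sums. Pseudogenes took 12.7% (11.4 to 14.1) of alpha joining reads in sham and 13.8% (11.8 to 15.9) in BLM Lamp1-depleted cells, where the intervals overlapped.

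Trbd1, the first beta diversity segment, is 12 bases long and was the only diversity segment with 10 reads in a library. It had 8, 51 and 2 reads in sham and 2, 1 and 5 in BLM. Sham Lamp1-depleted cells thus held most of its reads. The 51 sham reads against 1 BLM read in Lamp1-depleted cells gave a log2 ratio of -4.19 (-9.89 to -2.02).

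Rag1 encodes a subunit of the recombinase that joins the segments. It had 24, 518 and 48 reads in sham and 0, 10 and 1 in BLM, with a log2 ratio of -4.54 (-5.65 to -3.69) in Lamp1-depleted cells. Rag2, its partner, had 10 or fewer reads in every library, Dntt, which adds bases at the joints, had 76 reads in sham and 10 in BLM Lamp1-depleted cells, and Ptcra, the partner of an unfinished beta chain in the thymus, had 0 or 1. Recombination genes also act in B cell precursors. Of the 7 B cell markers 4 were lower and 0 higher in BLM than in sham Lamp1-depleted cells, and their summed level was 3414 against 1696 CPM. Their part in the Rag1 value was not tested.

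The delta locus repeated the contrast between classes on fewer reads. Trdj1 had 9, 17 and 3 reads in sham and 6, 34 and 3 in BLM, and Trdj2 1, 14 and 1 against 5, 18 and 4. In Lamp1-depleted cells their log2 ratios were 2.07 (1.23 to 3.04) and 1.43 (0.38 to 2.59; 0.73 by total counts), while Trdc was at -1.08 (-1.33 to -0.84) and the summed delta variable segments at -1.02 (-1.59 to -0.51). Joining reads took 16.0% (11.1 to 21.9) of delta joining and variable reads in sham and 58.4% (47.5 to 68.8) in BLM Lamp1-depleted cells. Trav segments with a dv number, whose names mark both loci, were counted as alpha, so the delta variable sums may miss reads. Trav13-4-dv7 alone held 75 reads over all libraries, against 103 for Trdv4. Trdv4, the highest delta variable segment per kilobase, had 13, 69 and 5 reads in sham and 0, 15 and 1 in BLM. Trdv2-2 had 5, 56 and 5 against 0, 8 and 0, and Trdv1 had 2, 21 and 0 against 0, 14 and 0, so that all 3 were highest in Lamp1-depleted cells. An exon of Trdv2-2 overlaps Gm43647 on the opposite strand.

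Trdc made up 9.83% (9.17 to 10.5) of the alpha, beta and delta constant reads in sham and 6.43% (5.51 to 7.45) in BLM Lamp1-depleted cells, and 12.2% (9.16 to 15.8) and 4.60% (2.40 to 7.89) in Lamp1-enriched cells. In unsorted cells the shares were 10.8% and 9.84%, and the intervals overlapped. The odds of a Trdc against a Trac read were 0.59 times as high in BLM as in sham Lamp1-depleted cells (0.49 to 0.70).

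At the gamma locus, Trgv2 had 4, 63 and 2 reads in sham and 4, 16 and 1 in BLM. Trgj1 had 19, 22 and 6 against 7, 12 and 3, Trgj4 5, 51 and 2 against 4, 7 and 2, Trgj2 at most 10, and Trgj3 0 in every library. In Lamp1-depleted cells Trgj4 was lower in BLM, with a log2 ratio of -1.71 (-3.14 to -0.61), and Trgj1 was at 0.23 (-0.91 to 1.31). The constant genes named Tcrg-C1, Tcrg-C2 and Tcrg-C4 had 499, 319 and 199 reads in sham and 211, 69 and 26 in BLM Lamp1-depleted cells. The interval of Tcrg-C1 did not overlap those of the other two, with ratios of -0.13 (-0.37 to 0.10) for Tcrg-C1, -1.10 (-1.50 to -0.72) for Tcrg-C2 and -1.81 (-2.48 to -1.23) for Tcrg-C4. Of the variable genes, Tcrg-V4 was at -1.56 (-2.28 to -0.94) and Tcrg-V6 at 0.80 (-0.07 to 1.68), the latter with 27 sham and 22 BLM reads.

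Genes of interleukin-17-producing gamma-delta T cells did not share one direction. Cd163l1, a scavenger receptor found on these cells, had 265 sham and 347 BLM reads in Lamp1-depleted cells, a log2 ratio of 1.496 (1.26 to 1.73), and Il17a had 43 and 50 reads, at 1.31 (0.71 to 1.95). Il23r, the receptor for interleukin-23, was at -0.60 (-0.90 to -0.32). Of the 7 genes, 2 were higher and 1, Il17f, lower in BLM Lamp1-depleted cells. By total counts Cd163l1 and Il17a were within 2-fold, at 0.78 and 0.60, and Il23r was lower, at -1.32. Between the fractions 5 of 6 tested by edgeR were lower in Lamp1-enriched cells, and Sox13 was higher, by log2 ratios of 2.83 (sham) and 3.05 (BLM).

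The segments of innate-like alpha-beta T cells were few. Invariant natural killer T cells join Trav11 to Traj18, and mucosal-associated invariant T cells join Trav1 to Traj33. Trav11 and its copy Trav11d, 99.7% identical, had 0 reads in every library, and Trav1 had 4 in all. A further copy, the pseudogene Trav11n, 97.7% identical to Trav11, had 2 reads. As for the other duplicated segments, a count of 0 here may depend on how reads matching several places were counted. Traj18 had 10, 52 and 2 reads in sham and 2, 22 and 2 in BLM, and Traj33 had 10, 60 and 10 against 0, 19 and 7. In Lamp1-depleted cells both were within 2-fold between treatments, at -0.13 (-0.92 to 0.61) and -0.54 (-1.38 to 0.22). Either joining segment can also be joined to other variable segments, so these reads do not count the invariant cells.

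The signalling genes of Lamp1-depleted cells split in the BLM comparison. Cd3e, a CD3 chain, was at 116 CPM in sham and 52.9 in BLM, a log2 ratio of -1.13 (-1.23 to -1.04), and Cd3g at -1.54 (-1.73 to -1.37). Lat, the adaptor that links the receptor to later signals, was at 36.4 and 88.5, a log2 ratio of 1.28 (1.19 to 1.38), and the kinase gene Zap70 at 1.15 (1.03 to 1.27). The kinase gene Lck was at 0.58 (0.52 to 0.65). By total counts these 3 were at 0.56, 0.43 and -0.14, so Lck changed direction. Of the 12 genes of this list, 3 were lower and 2 higher by 2-fold, with a median of -0.20, equal to that of all genes compared. Among coreceptors Cd8b1 was lower, at -1.90 (-2.09 to -1.72), while Cd8a was at -0.46 and Cd4 at -0.82. The costimulatory receptor Cd28 was at -1.62 (-1.72 to -1.51), and Foxp3, of regulatory T cells, and Pdcd1, an inhibitory receptor, were higher at 1.37 (1.13 to 1.63) and 1.98 (1.69 to 2.28). By total counts Foxp3 was within 2-fold, at 0.65, and Pdcd1 was at 1.26. Of the 10 helper, regulatory and effector genes of their list, 2 were higher and 3 lower by TMM scaling, with a median of -0.24. Gzmb was at 20.1 CPM in sham and 7.20 in BLM, Ccl5 at 21.6 and 8.52, and Ifng at 5.42 and 2.27. Constant reads came to 92.9 per 100 CD3 reads in sham and 145 in BLM Lamp1-depleted cells, against 103 and 117 in Lamp1-enriched and 109 and 112 in unsorted cells.

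Markers of other cells differed beside these values. All 6 myeloid markers were higher in BLM, at a median log2 ratio of 3.29, and their summed level was 2153 CPM in sham and 18672 in BLM unsorted cells. In Lamp1-depleted cells 1 of 6 was higher, and the summed levels were 1489 and 2655. Of 8 natural killer cell markers 7 were lower in BLM Lamp1-depleted cells, with summed levels of 188 and 62.6 CPM. The part of these cells in the receptor values was not tested.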

How the data were processed

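Polyadenylated RNA of 6 mouse lung libraries, 1 per condition, was read in pairs of 150 bases. The deposited table holds the authors' raw counts per gene, with no normalization. The submitters' processing notes name Trimmomatic 0.36, STAR 2.5.2b, featureCounts of Subread 1.5.2 and DESeq2, and the build GRCm38. Settings for strand, for reads matching several places and for reads overlapping several genes were not given in the sources used here, and a read over a joined segment can overlap more than 1 gene. Segments were annotated from GENCODE M21, of the same build.

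The members and gene lists were chosen with earlier results of these data known. Named genes were the constant genes, in each locus the variable segments (6 alpha, 6 beta, 4 of gamma and delta) and the 4 joining segments with the highest mean CPM, diversity segments with 10 reads, the innate-like segments, the 5 members with the largest ratio in each direction among those with 50 reads, and the context lists.

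Counts were scaled by edgeR 4.0.16 TMM factors in R 4.3.3, and log2 ratios used a prior count of 0.5 reads. The floor was 3 counts. The sorted fractions were compared by edgeR's quasi-likelihood test over 4 libraries with treatment as a block and Benjamini-Hochberg adjustment (threshold 0.05). DESeq2 1.42.0 was an alternative. Class balances used conditional odds ratios with exact 95% intervals (scipy 1.17.1). Class usage was compared by the inverse Simpson index and by the summed difference of shares over the segments that took more in either library. Libraries held 30236120 to 52918696 reads, and intervals cover counting error only. The scripts were tested on simulated data.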

Additional observations from a re-analysis of the deposited data

Results flagged for a closer look

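The BLM comparison differed in direction between fractions for 3 sums, with counting intervals on opposite sides of 0. With 1 library per condition the difference between fractions was not tested. The alpha locus had a log2 ratio of BLM over sham of 0.21 in unsorted cells, -0.21 in Lamp1-depleted cells and -0.58 in Lamp1-enriched cells. The alpha joining segments were at 0.29 in unsorted and -0.45 in Lamp1-enriched cells. All joining segments together were at 0.20 in unsorted, 0.17 in Lamp1-depleted and -0.37 in Lamp1-enriched cells.

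These directions moved with the scaling. By total counts the alpha locus was at -0.05, -0.93 and -0.56 in the same order of fractions, and all joining segments at -0.07, -0.55 and -0.35, so that no sum was higher in BLM there except the alpha joining segments in unsorted cells, at 0.02. By DESeq2 size factors the alpha locus was at 0.23, -0.06 and -0.59 and all joining segments at 0.21, 0.32 and -0.38. The myeloid markers were 6 of 6 higher in BLM unsorted cells, and their part in these values was not tested.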

How the results depend on the processing

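Of the alternatives to the member counts and sums, 84 values stayed within 1.5 times the count or within the counting interval and 41 moved. Scaling by total counts left 3 members higher in unsorted cells and put the summed log2 ratio at -4.32 (sham) and -3.99 (BLM) between the fractions and at -0.46 (unsorted) and -1.19 (Lamp1-depleted) between treatments. DESeq2 size factors gave -4.70 between the BLM fractions and -0.32 for BLM over sham in Lamp1-depleted cells. With genes of at least 1 read, 3 members were higher between the sham fractions, 139 lower and 6 higher between the BLM fractions, 56 lower and 38 higher in unsorted cells and 65 lower and 28 higher in Lamp1-enriched cells. With at least 50 reads, 54 of 54 members were lower between the sham and 13 of 13 between the BLM fractions. BLM over sham then gave 0 lower and 1 higher of 5 in unsorted, 27 and 5 of 55 in Lamp1-depleted and 1 and 0 of 3 in Lamp1-enriched cells. A log2 ratio of at least 3 left 4 lower and 0 higher in unsorted, 19 and 1 in Lamp1-depleted and 3 and 1 in Lamp1-enriched cells. Thinning every library to the smallest total gave 8 lower and 2 higher of 24 in unsorted and 5 and 0 of 6 in Lamp1-enriched cells, and a sum of -0.41 in Lamp1-depleted cells. The cause of these moves other than the number of genes or reads was not tested. Shares of all genes at these settings are not given here, so these member counts cannot be set against the whole table.

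The sum of the sham fractions was -4.26 over constant genes only. Over variable segments only, BLM over sham was -0.64, -1.16 and -1.53 in unsorted, Lamp1-depleted and Lamp1-enriched cells. Over joining segments only, an alternative added after seeing the data, it was 0.20, 0.17 and -0.37, which changed the sign in unsorted and Lamp1-depleted cells, and the sham fractions were at -3.93. In the edgeR test, 73 members were lower with total counts, 80 of 81 in thinned libraries, 86 of 189 with genes of at least 1 read and 67 without the treatment block, against 86 of 87. Over all genes, in the same order, 1564 of 20593, 4039 of 19696, 3345 of 34298 and 2392 of 20593 were lower, against 3964 of 20593. The treatment block is the only pairing in these data, since each condition is 1 library and the labels carry no replicate numbers. Leaving out a treatment from the edgeR test leaves the single-treatment ratios. In Lamp1-enriched and unsorted cells most segments held under 10 reads and were not compared.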
